A study of Mus musculus with 4 samples.

Results

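A set of 10 named host genes of the antiviral response was examined, and they are called antiviral effectors below: *Bst2*, *Rsad2*, *Cmpk2*, *Isg20*, *Apobec3*, *Mx1*, *Mx2*, *Xaf1*, *Ifi27* and *Ifi44*. They were picked by gene name, and 10 of the 39186 genes in the deposited table carried one of these names. The study asked what loss of PICH does to blood-forming cells of the mouse fetal liver. PICH, an ATP-driven DNA translocase that binds ultrafine DNA bridges between separating chromosomes, is encoded by the X-linked gene *Ercc6l*. RNA was sequenced from sorted LSK cells, which carry c-Kit and Sca-1 but no lineage markers and include the hematopoietic stem cells.

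There were 2 *Pich*-KO and 2 *Pich*-WT samples from mid-gestation C57BL/6 embryos. The *Pich*-KO line carries a germline deletion made with TALENs in an early exon, so every cell of the embryo lacks PICH, and *Pich*-WT embryos carry the intact gene. Neither group carried another allele or received an agent according to the labels. Whether each sample came from 1 embryo or from a pool is not given in the sources used here, so p-values measure the spread between these samples, which may be technical.

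Antiviral effectors are made by almost every cell type after it senses type I interferon. The receptor activates the kinases JAK1 and TYK2, and a complex that contains STAT2 and IRF9 then binds interferon-stimulated response elements in the promoters of the target genes. The proteins act at different steps of infection, from the copying of viral nucleic acid to the release of new particles, and some are already present at a low level in uninfected cells.

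The RefSeq windows from 250 bases before to 50 bases after a gene's start, on GRCm38.p6, were searched for 2 sequence elements through which interferon acts. A window was at hand for 7 of the 10 antiviral effectors. *Mx1*, *Mx2* and *Ifi27* had none and were not searched. The core of the response element, here a pair of GAAA blocks with any 2 bases between them and on either strand, occurred in *Bst2*, *Rsad2* and *Apobec3*, and in at least 1 window of 3.99% of all genes (3.44% of all 32851 windows). The gamma-activated sequence TTCNNNGAA, the element through which type II interferon acts, was found on either strand in *Bst2* and *Isg20*, and in at least 1 window of 9.55% of all genes (8.30% of windows). In *Bst2* the gamma-activated sequence, 136 bases upstream of the start, overlapped the first of 2 overlapping response element cores at 130 and 124 bases upstream. The stretches of the 3 genes with a core, and of *Cmpk2* as the divergent neighbour of *Rsad2* in which neither element was found, are shown because they hold the gene with the smallest response and a pair that shares its upstream region. Neither element was found in the windows of *Xaf1* and *Ifi44*. Capitals mark the response element core, or its reverse complement where the match was on the other strand.
Bst2, chr8:71537473-71537622, minus strand: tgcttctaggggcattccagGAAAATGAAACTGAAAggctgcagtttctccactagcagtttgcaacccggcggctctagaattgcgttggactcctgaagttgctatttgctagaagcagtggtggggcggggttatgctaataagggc
Rsad2, chr12:26456453-26456602, minus strand: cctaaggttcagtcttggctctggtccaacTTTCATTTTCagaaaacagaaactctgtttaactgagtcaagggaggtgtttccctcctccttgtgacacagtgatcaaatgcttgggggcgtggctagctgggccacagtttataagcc
Cmpk2, chr12:26469054-26469203, plus strand: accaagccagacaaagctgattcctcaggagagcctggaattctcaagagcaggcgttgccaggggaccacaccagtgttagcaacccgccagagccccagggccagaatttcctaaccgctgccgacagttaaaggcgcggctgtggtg
Apobec3, chr15:79892258-79892287, plus strand: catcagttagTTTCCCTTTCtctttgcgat
A match describes letters in a short window and does not show that a factor was bound there. The *Apobec3* stretch also lies in an exon of a processed transcript of the same gene in GENCODE M21.

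All 10 antiviral effectors were higher in *Pich*-KO than in *Pich*-WT LSK cells, with an adjusted p under 0.05 in limma. Of the 32428 genes tested, 7.58% were called higher, and 21.1% of the 10544 with a mean normalized count of at least 100, a level that all 10 antiviral effectors reached. None of the 10 was lower, by limma or at an unadjusted p under 0.05, and 9.6% of all genes tested were. edgeR and DESeq2 on the recovered reads also called 10 of 10 higher, where they called 18.6% and 16.7% of the genes they tested. The 2 *Pich*-KO values lay above both *Pich*-WT values for 10 of 10 antiviral effectors, which was also true of 28.9% of all genes tested, with 27.2% in the reverse order. Their median log2 fold change was 2.52, beside 0.02 for all genes tested. A log2 fold change of at least 2 was reached by 9 of the 10, the exception being *Apobec3*, and 0.749% of all genes tested were called with a change of that size.

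These calls rested on all 4 samples, as did the calls across the whole table, which fell in the same fits. Without *Pich*-KO 1, 7 of 10 antiviral effectors remained past the threshold, and *Apobec3*, *Isg20* and *Rsad2* did not. Without *Pich*-KO 2, *Pich*-WT 1 or *Pich*-WT 2, limma called 0 of the 10 at an adjusted p under 0.05, with 10, 9 and 9 at an unadjusted p under 0.05, while the log2 fold changes of all 10 stayed above 0 in these fits. Leaving out 1 sample could not turn a sign, because both *Pich*-KO values lay above both *Pich*-WT values for each of the 10. limma with 1 prior variance for all genes also called 0 of the 10, with 10 at an unadjusted p under 0.05. That fit called 0 of all 32428 genes tested in either direction. In this design the smallest two-sided p that an exact permutation test can give for 1 gene is 0.333.

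**Figure D1:**
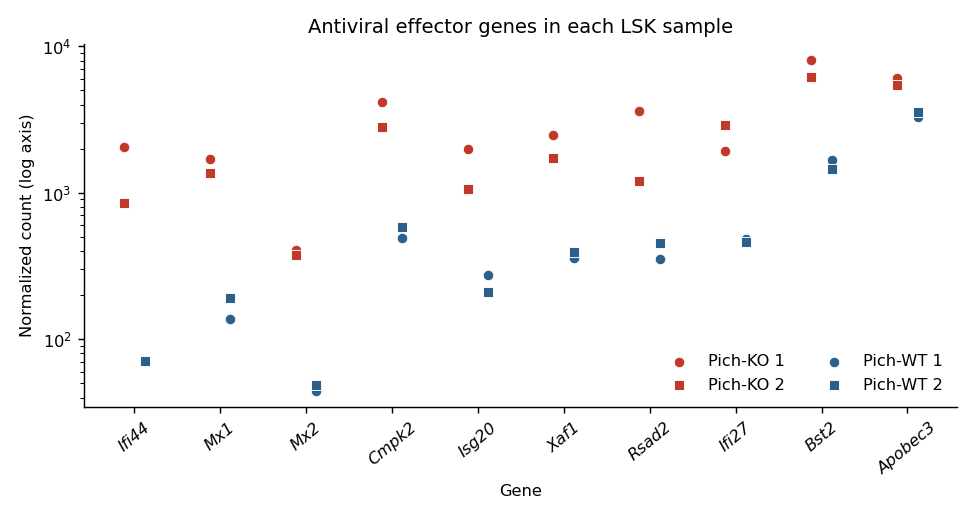
Normalized read count (log axis) of the 10 antiviral effectors in the 2 *Pich*-KO and 2 *Pich*-WT samples, with 1 point per sample. Both *Pich*-KO points lie above both *Pich*-WT points for 10 of 10 genes, with the narrowest gap for *Apobec3* and the widest for *Ifi44*.

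Values that moved with the comparison across the whole table are given first. Between 14703215 and 20933919 reads per sample were assigned to genes. All 12 LSK markers examined were detected, with 1 higher in *Pich*-KO, *Ly6a* (the gene of Sca-1, used for the sort), and 5 lower. All 12 macrophage markers were lower in *Pich*-KO, with summed normalized counts of 8023 to 9149 against 59362 to 60902. The erythroid markers were lower for 9 of 10, and the endothelial markers for 6 of 6. Of 5 plasmacytoid dendritic cell markers, a cell type with high *Bst2* in the mouse, 1 was higher and 1 lower, and their sums were 261 to 563 in *Pich*-KO and 520 to 649 in *Pich*-WT. Hepatocyte markers were lower for 5 of 8 and lymphoid markers for 2 of 8, and no marker of either list was higher. *Pich*-WT 2 had 0 reads on 4 Y-linked genes and 699 on *Xist*, unlike the other 3 samples, and *Ercc6l* mRNA itself was 1.66-fold higher in *Pich*-KO, which does not check the genotype because a transcript with a short deletion is still counted. The part of these differences in the antiviral results was not tested. In sorted but mixed RNA, fewer cells of a type and less RNA per cell cannot be told apart.

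*Bst2* (ENSMUSG00000046718) encodes tetherin, a membrane protein that holds budding enveloped viruses at the cell surface. It lies at chr8:71534255-71537456 on the minus strand. Its normalized counts were 8001 and 6141 in *Pich*-KO, beside 1674 and 1460 in *Pich*-WT. The lower *Pich*-KO value was 3.67 times the higher *Pich*-WT value, and the fold change of 4.48 was the second smallest of the set (log2 2.16, SE 0.14, limma adjusted p = 7.51e-05). On a scale that divides reads by exon length and library total (RPKM), *Bst2* was the most abundant of the 10 in both groups, at 109 ± 6.69 (SD, n = 2) in *Pich*-WT and 471 ± 90.3 (SD, n = 2) in *Pich*-KO. It stood at the 97.4 and 99.6 percentiles of all tested protein-coding genes in these groups. It alone made up 57.3% to 61.5% of the summed RPKM of the antiviral effectors in each of the 4 samples, so its share of the total was nearly the same in both genotypes.

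Another 4 of the genes act on nucleotides or on viral nucleic acid. *Rsad2* (ENSMUSG00000020641) encodes viperin, a radical SAM enzyme that turns CTP into a chain-terminating nucleotide, and *Cmpk2* (ENSMUSG00000020638) encodes a mitochondrial nucleoside monophosphate kinase. They lie next to each other and point away from each other, *Rsad2* at chr12:26442746-26456452 on the minus strand and *Cmpk2* at chr12:26469204-26479837 on the plus strand, with 12752 bases between their starts. *Rsad2* had normalized counts of 3645 and 1197 in *Pich*-KO, beside 352 and 453 in *Pich*-WT. Its *Pich*-KO values were the most unequal of the set, 3.05-fold apart, although the lower still exceeded both *Pich*-WT values. The log2 fold change was 2.38 with the widest standard error of the 10, 0.43 (limma adjusted p = 0.00721), and it was 1.58 without *Pich*-KO 1 and 3.19 without *Pich*-KO 2. *Cmpk2* had 4135 and 2792 in *Pich*-KO, beside 490 and 580 in *Pich*-WT, groups that were well apart. It rose by a log2 fold change of 2.67 (SE 0.19, limma adjusted p = 0.000111), and its 95% interval overlapped that of *Rsad2*. The ratio of *Rsad2* to *Cmpk2*, in RPKM, was 0.847 and 0.412 in *Pich*-KO, beside 0.691 and 0.750 in *Pich*-WT, so the pair kept no fixed ratio within *Pich*-KO.

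*Isg20* (ENSMUSG00000039236, chr7:78913424-78920396, plus strand) encodes an exonuclease that degrades single-stranded RNA. Its normalized counts were 1981 and 1055 in *Pich*-KO, beside 274 and 211 in *Pich*-WT. The lower *Pich*-KO value was 3.86 times the higher *Pich*-WT value, and the gene rose 6.00-fold (log2 2.58, SE 0.29, limma adjusted p = 0.000688). *Apobec3* (ENSMUSG00000009585, chr15:79891659-79915906, plus strand) encodes a cytidine deaminase that is packed into retroviral particles and mutates their DNA. It had 6062 and 5428 in *Pich*-KO, beside 3293 and 3542 in *Pich*-WT. This was the only one of the 10 whose lower *Pich*-KO value was under 2 times the higher *Pich*-WT value, at 1.53. It rose 1.68-fold (log2 0.75, SE 0.10, limma adjusted p = 0.00145), and its 95% interval of 0.52 to 0.97 did not reach that of any other antiviral effector. In *Pich*-WT it was second in level, with an RPKM of 22.7 ± 1.96 (SD, n = 2), and its share of the summed RPKM was 11.6% and 13.3% in *Pich*-WT and 4.24% and 4.85% in *Pich*-KO. The *Apobec3* locus overlaps *Cbx7* on the other strand and the gene model AC113595.1 on its own, and no source states that strand was used in counting, so reads in the shared bases cannot be assigned with certainty. *Cbx7* was not past the threshold (log2 fold change −0.66, limma adjusted p = 0.0663), and AC113595.1 had 63 to 84 reads per sample.

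*Mx1* (ENSMUSG00000000386) and *Mx2* (ENSMUSG00000023341) encode dynamin-like GTPases that block the early steps of infection, *Mx1* in the nucleus against influenza-like viruses. Most inbred mouse strains, C57BL/6 among them, carry defective alleles of both. The deposited table lists *Mx1* as protein-coding and *Mx2* as a polymorphic pseudogene, and RefSeq on GRCm38.p6 lists both as transcribed pseudogenes, so the values are levels of transcript only. They lie at chr16:97447035-97462907 on the minus strand and chr16:97535308-97560900 on the plus strand, with 72401 bases between their starts. *Mx1* had normalized counts of 1698 and 1355 in *Pich*-KO, beside 137 and 190 in *Pich*-WT, a fold change of 9.36 (log2 3.23, SE 0.21, limma adjusted p = 7.17e-05). *Mx2* had 407 and 379 in *Pich*-KO, beside 44.5 and 49 in *Pich*-WT, a fold change of 8.24 (log2 3.04, SE 0.22, limma adjusted p = 0.000113). The *Pich*-KO samples lay close together for *Mx2*, and for both genes the lower one was at least 7.13 times the higher *Pich*-WT value. The ratio of *Mx2* to *Mx1* in RPKM was 0.251 and 0.293 in *Pich*-KO, beside 0.341 and 0.270 in *Pich*-WT, ranges that overlapped. The coding sequences are related, and how reads that match both were counted is not given in the sources used here.

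*Xaf1*, *Ifi27* and *Ifi44* are induced by interferon, and the first is a partner and antagonist of the apoptosis inhibitor XIAP. *Xaf1* (ENSMUSG00000040483, chr11:72301629-72313733, plus strand) had 2463 and 1737 normalized counts in *Pich*-KO, beside 360 and 396 in *Pich*-WT. The groups did not overlap, and the gene rose 5.46-fold (log2 2.45, SE 0.18, limma adjusted p = 0.000121). *Ifi27* (ENSMUSG00000064215, chr12:103434211-103440239, plus strand), which encodes a small hydrophobic protein, had 1924 and 2891 in *Pich*-KO, beside 481 and 460 in *Pich*-WT. It rose by 2.32 on the log2 scale (SE 0.19, limma adjusted p = 0.00019), and it was the only antiviral effector with the higher *Pich*-KO value in sample 2. *Ifi44* (ENSMUSG00000028037, chr3:151730922-151749960, minus strand) had 2061 and 856 in *Pich*-KO, beside 71.1 and 71 in *Pich*-WT. It had the lowest RPKM of the set in *Pich*-WT, 0.727 ± 0.02465 (SD, n = 2), and the largest fold change, 18.4 with a 95% interval of 10.3 to 33.0 (log2 4.21, SE 0.36, limma adjusted p = 0.000233). Its lower *Pich*-KO value was 12.0 times its higher *Pich*-WT value. Its log2 fold change was 3.57 without *Pich*-KO 1 and 4.84 without *Pich*-KO 2.

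**Figure D2:**
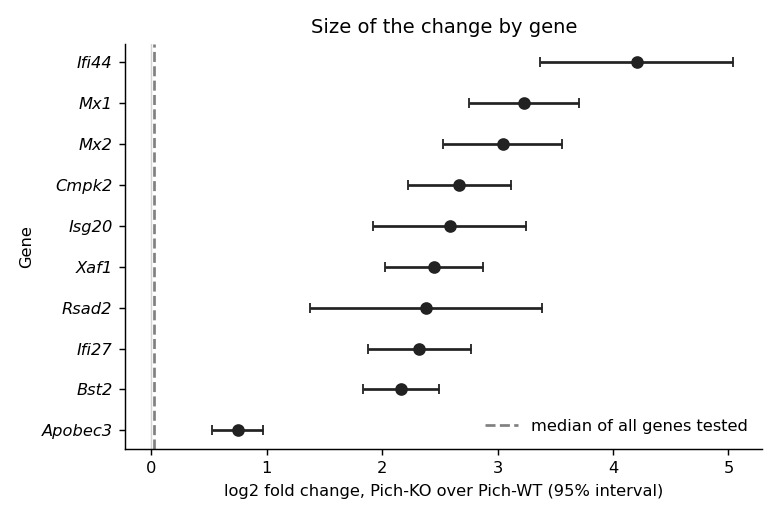
Log2 fold change of *Pich*-KO over *Pich*-WT for the 10 antiviral effectors, ordered by size, with 95% intervals from limma and the median of all genes tested (0.02) as a dashed line. The intervals of neighbouring genes overlap from *Ifi44* at 4.21 down to *Bst2* at 2.16, and the interval of *Apobec3*, at 0.75, lies below all others.

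The order of the fold changes was *Ifi44*, *Mx1*, *Mx2*, *Cmpk2*, *Isg20*, *Xaf1*, *Rsad2*, *Ifi27*, *Bst2* and *Apobec3*. Each gene's 95% interval overlapped that of the next down to *Bst2*, so neighbours in that stretch were not separated by their error, whereas *Bst2* and *Apobec3* were. Within the 10544 genes that averaged at least 100 normalized counts, *Ifi44* had the 9th largest log2 fold change and *Bst2* the 84th, and *Apobec3* was at place 1224. The intervals come from limma with 2 samples per group and cover the spread between these samples only.

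The order of the levels was different from that of the fold changes. In *Pich*-WT the sequence by RPKM ran from *Bst2* (109) through *Apobec3* (22.7), *Ifi27* (20.1), *Isg20* (8.14), *Cmpk2* (8.07), *Rsad2* (5.84), *Xaf1* (5.06), *Mx1* (2.72) and *Mx2* (0.812) to *Ifi44* (0.727). The sample values of *Isg20* and *Cmpk2*, and those of *Rsad2* and *Xaf1*, overlapped. In *Pich*-KO *Bst2* (471) and *Ifi27* (98.5) led, and *Cmpk2* (50.03), *Isg20* (49.1), *Apobec3* (36.5), *Rsad2* (33.6), *Xaf1* (26.9) and *Mx1* (24.2) followed with neighbours whose sample values overlapped. *Ifi44* (14.3) and *Mx2* (6.53) came last. *Bst2* was thus the most abundant in both genotypes, whereas the least abundant gene differed, with *Ifi44* last in *Pich*-WT and *Mx2* last in *Pich*-KO. Together the 10 genes took 0.195% and 0.143% of all reads on genes in the *Pich*-KO samples, beside 0.0439% and 0.0476% for *Pich*-WT.

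**Figure D3:**
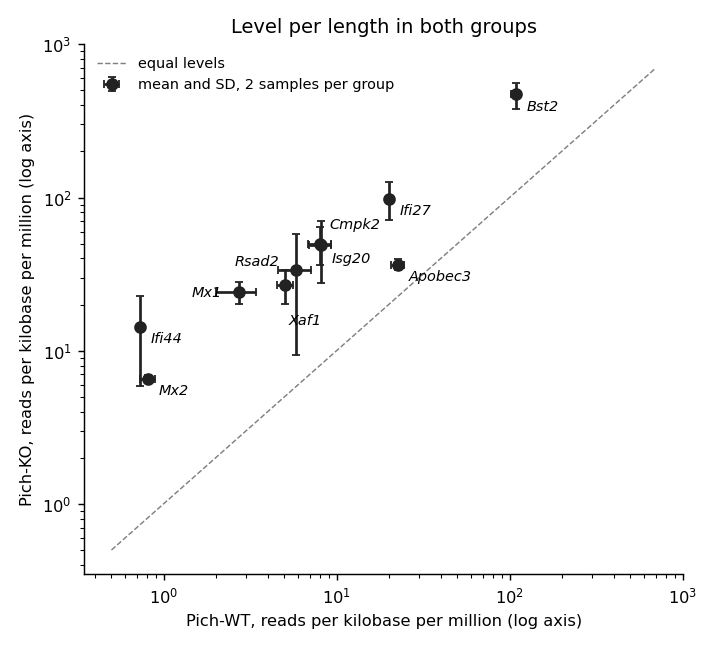
Mean level of each antiviral effector in *Pich*-KO (vertical) against *Pich*-WT (horizontal), in RPKM on log axes, with bars for the SD of 2 samples per group and a dashed line of equal levels. All 10 genes lie above the line, with *Apobec3* (22.7 and 36.5) nearest to it and *Ifi44* (0.727 and 14.3) farthest.

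The 2 *Pich*-KO samples differed from each other in these genes. *Pich*-KO 1 was the higher for 9 of 10 antiviral effectors, with a median log2 ratio of sample 1 over sample 2 of 0.44. Over all genes that averaged at least 100 it was the higher for 52.2%, with a median of 0.01, and among those called higher in *Pich*-KO for 39.0%, with a median of −0.05. The log2 ratio was 1.61 for *Rsad2*, 1.27 for *Ifi44* and 0.91 for *Isg20*. It was between 0.10 and 0.57 for *Cmpk2*, *Xaf1*, *Bst2*, *Mx1*, *Apobec3* and *Mx2*, and it was −0.59 for *Ifi27*. The size of the gap did not follow the fold change, since *Mx1* and *Mx2* came next after *Ifi44* in fold change and had ratios of 0.33 and 0.10. Between the *Pich*-WT samples, 4 of 10 were higher in sample 1, with a median of −0.12.

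Some other values, chosen after they were seen, moved with this gap. *Irf7*, the transcription factor that amplifies interferon production, had 9487 normalized counts in *Pich*-KO 1 and 4981 in *Pich*-KO 2, and *Usp18*, the feedback inhibitor of the interferon receptor, had 6690 and 3071. *Siglech*, a marker of plasmacytoid dendritic cells, had 113 and 19.3, and the progenitor marker *Cd34* had 11424 and 6226. Not all genes of the same kinds did so. *Irf9*, also of interferon signalling, had 1634 and 1862. The other plasmacytoid dendritic cell markers were split. *Ccr9* (226 and 54.6) and *Pacsin1* (63.3 and 21.6) moved as *Siglech* did. *Clec10a*, at very low counts of 2.18 and 12.5, and *Cox6a2*, with 158 and 153, did not. The part of any of these genes in the difference between the *Pich*-KO samples was not tested.

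**Figure D4:**
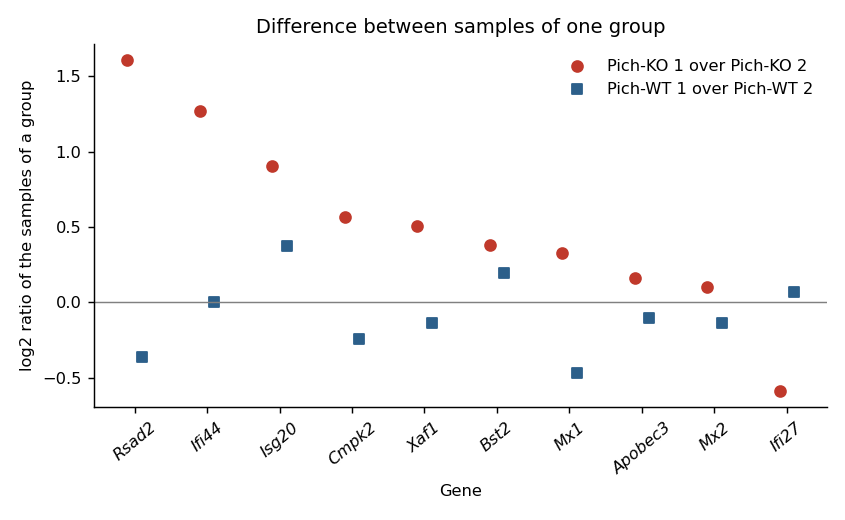
Log2 ratio of sample 1 over sample 2 within *Pich*-KO and within *Pich*-WT for each antiviral effector, 1 point per gene and group, on a linear axis of log2 units with 0 for equal values. In *Pich*-KO 9 of 10 points lie above 0, from 0.10 for *Mx2* to 1.61 for *Rsad2*, and *Ifi27* lies at −0.59.

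The genes upstream of the antiviral effectors changed in both directions. Of 11 genes of interferon signalling, 5 were higher and 2 lower, beside 7.58% and 9.6% of all genes tested. Their median log2 fold change was 0.29. The higher genes included *Usp18* (4.25), *Irf7* (2.22), *Stat2* (1.07) and *Irf9* (0.75), the last 2 of which encode subunits of the complex that binds the response element. The receptor subunit *Ifnar1* (−0.56) and the kinase *Jak1* (−0.75) were the lower ones. *Ifnar2*, *Tyk2*, *Irf1* and *Socs1* did not pass the test. Without *Pich*-KO 1, 3 of the 11 were higher, and without any 1 of the other samples, 0 were.

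Restriction factors outside the set changed less uniformly. Of 17 other genes that limit viruses, 9 were higher and 2 lower, beside 7.58% and 9.6% of all genes tested. Their median log2 fold change was 0.48. *Rnf213*, a giant ubiquitin ligase, had the largest value at 2.73, followed by *Serinc3* (2.02), a membrane protein that lowers the infectivity of retroviruses, and *Znfx1* (1.94), an RNA helicase. *Daxx* (1.33), *Sp100* (1.05) and *Pml* (0.48), components of nuclear bodies that silence incoming viral genomes, also rose, as did *Shfl* (1.05), *Zc3hav1* (0.81) and *Mov10* (0.80). *Pml* was close to the threshold, with a limma adjusted p of 0.0484. *Serinc5* (−1.07) and the ubiquitin ligase *March8* (−1.21) fell. *Samhd1*, *Ch25h*, *Plscr1*, *Tdrd7*, *N4bp1* and *Cnp* did not pass the test, with values from −1.93 for *Ch25h*.

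Relatives and partners of the antiviral effectors mostly did not pass the test. Of 22 such genes, 3 were higher and 2 lower, beside 7.58% and 9.6% of all genes tested. Their median log2 fold change was 0.07. *Ifi27l2a*, a paralog of *Ifi27*, was the one with a change of similar size, with 2809 and 1831 normalized counts in *Pich*-KO, beside 506 and 435 in *Pich*-WT (log2 2.27, SE 0.21, limma adjusted p = 0.000279), and how reads that match both paralogs were counted is not given in the sources used here. *Aen*, an exonuclease related to *Isg20*, rose by 1.06 on the log2 scale and *Dnm1l*, a dynamin relative of the Mx genes, by 0.48. *Xiap*, the binding partner of the *Xaf1* product, fell by 0.66 on that scale and *Apobec1* fell by 0.56. *Ifi44l*, the closest relative of *Ifi44*, had at most 3 reads in every sample, so no difference in it was detectable at this depth.

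With their listed relatives and partners left out, the genes next to the antiviral effectors did not rise with them as a group. Of 17 distinct nearest protein-coding genes by start, 2 were higher and 4 lower, beside 7.58% and 9.6% of all genes tested. Their median log2 fold change was −0.01. *Mvb12a*, which starts 5.47 kb from *Bst2*, had a log2 fold change of 0.64, and *Ddx24*, 8.38 kb from *Ifi27*, one of 1.12. *Bace2* near *Mx1* (−4.60), *Sox11* near *Rsad2* and *Cmpk2* (−3.31), *Adgrl4* near *Ifi44* (−1.85) and *Cbx6* near *Apobec3* (−0.51) fell. The other 11 did not pass the test, *Fam3b* between *Mx1* and *Mx2* among them. Several of these had very low normalized counts, so a rise in them could hardly be detected. Both neighbours of *Xaf1*, *Slc13a5* (0 to 4.36) and *Fbxo39* (2 to 7.96), and *Acan* near *Isg20* (3.41 to 9.82) were such genes. *Rsad2* and *Cmpk2* are each other's nearest neighbours and were left out of this count. The other antiviral effectors and the 22 relatives and partners were left out as well. A relative that lies nearer than a gene listed here is therefore not counted. Of those 22, 3 were higher, *Ifi27l2a* (2.27) and *Aen* (1.06) among them, and 2 lower.

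**Figure D5:**
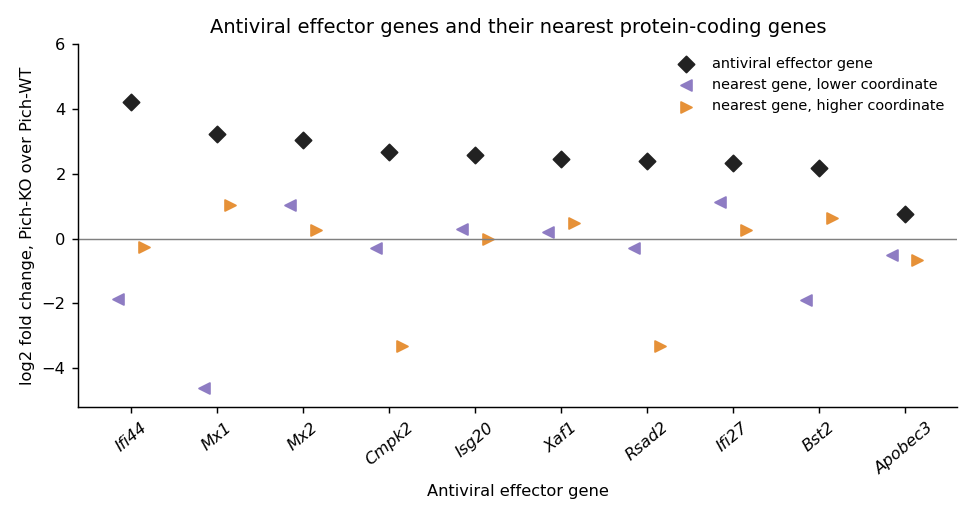
Log2 fold change of *Pich*-KO over *Pich*-WT for the 10 antiviral effectors (diamonds) and for the nearest protein-coding gene on each side (triangles), with 0 as a line. Antiviral effectors and their listed relatives and partners were left out when the nearest genes were picked. Each diamond lies above both of its triangles, which run from −4.60 for *Bace2* to 1.12 for *Ddx24*.

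Across the 4 samples, the mean log2 profile of the antiviral effectors was most like those of *Parp14*, *Nlrc5*, *Oas1a*, *Atp11b* and *H2-T23*, from 10534 other genes that averaged at least 100 normalized counts. Their Euclidean distances, after each profile was centred on its own mean, were 0.103, 0.145, 0.157, 0.202 and 0.229 log2 units. Of the antiviral effectors themselves, *Xaf1* (0.136) and *Cmpk2* (0.149) lay nearest to the mean profile, and *Ifi44* (1.71) and *Apobec3* (1.85) lay farthest, on the side of a larger and a smaller change. With 4 samples in 2 groups, this likeness is mainly that of the size of the change.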

How the data were processed

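The authors deposited 1 table for the RNA of LSK cells, with a column for each of 2 *Pich*-KO and 2 *Pich*-WT samples. These columns hold a normalized signal, the read count of a gene over a size factor set per sample by the authors. Multiplying back gave whole reads for 100% of the values (relative tolerance 1e-06). The submitters' processing notes name Bowtie 0.12.2 and the builds mm8 and mm9, but the deposited start and end matched GENCODE M21 for 97.8% of the 39163 genes it holds, so gene coordinates are on GRCm38. The counter and its strand setting are not given in the sources used here. The group means, and the log2 fold changes, p-values and adjusted p-values of the authors' own comparison that the deposited table also holds, were not used.

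limma 3.58.1 (R 4.3.3) with a mean-dependent prior variance was fitted to log2(normalized count + 1) of the 32428 genes that averaged 1 or more, with Benjamini-Hochberg adjustment over all of them and a threshold of 0.05. Fold changes refer to that scale and are too small for low genes. RPKM was computed from the recovered reads, their totals of 14703215 to 20933919 per sample and the deposited gene lengths. Chi-square per degree of freedom between the samples was 14.7 in *Pich*-KO and 8.18 in *Pich*-WT, more than counting noise, and each sample counted as 1 replicate. Alternatives were a pseudocount of 0.1, no filter, no variance trend, a replicate block, edgeR 4.0.16 and DESeq2 1.42.0 on the recovered reads, and leaving out each sample in turn. On the reads, edgeR called 3097 genes higher and 3436 lower. The main limma fit and the edgeR fit were tested on simulated data, and the other alternatives were not.

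The genes and lists were chosen with earlier results of these data known. Named genes are all 10 antiviral effectors, their flanking genes, genes past the threshold and the extremes of each other list, genes at the floor of 3 reads, the 5 genes with the most similar profile, the targeted gene and genes that show the sex of the embryo. *Irf7*, *Usp18*, *Siglech*, *Ccr9*, *Pacsin1*, *Cd34*, *Irf9*, *Clec10a* and *Cox6a2* in the comparison of the *Pich*-KO samples were chosen after their values were seen. *Shfl* is listed under an older symbol and was found through RefSeq synonyms. Promoter windows are from RefSeq. The values of a few listed genes are not reported here.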

Additional observations from a re-analysis of the deposited data

How the results depend on the processing

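The log2 fold changes of the 10 antiviral effectors and their median kept their sign under the alternatives run. For each of the 10, both *Pich*-KO values lay above both *Pich*-WT values. Leaving out a sample, another pseudocount, no filter, no variance trend or a replicate block therefore could not turn a sign. The log2 fold changes of other genes and lists were not recomputed. The count of antiviral effectors called higher stayed at 10 with a pseudocount of 0.1, no filter, a replicate block, edgeR and DESeq2. Without the variance trend limma called 0 of them (10 at an unadjusted p under 0.05), 0 of all genes in either direction (7377 unadjusted), and 0 of the other restriction genes, relatives, interferon signalling genes and flanking genes. Leaving out 1 sample gave 0 to 7 antiviral effectors called. It gave 0 to 548 of all genes higher (2459 with all samples) and 0 to 1193 lower (3113 with all), 0 to 6 other restriction genes (9 with all), 0 to 2 relatives (3 with all), 0 to 3 interferon signalling genes (5 with all) and 0 to 1 flanking genes (2 with all). The counts were 0 with *Pich*-KO 2, *Pich*-WT 1 or *Pich*-WT 2 left out. Such a fit assumes that the lone sample varies like the other group. The median log2 fold change of the antiviral effectors was 2.29 to 2.996 over these fits. For single genes the widest ranges were those of *Rsad2*, 1.58 without *Pich*-KO 1 to 3.19 without *Pich*-KO 2, and of *Ifi44*, 3.57 to 4.84 without the same samples.

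The replicate numbers did not pair the samples (correlation of deviations 0.0133 over 10544 genes), and the replicate block gave 10 of 10 antiviral effectors and 3122 genes higher. At this depth the antiviral effector with the fewest reads, *Mx2*, had 44.5 to 407 normalized counts per sample, whereas *Ifi44l* was at or under 3 reads.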
